A study of Mus musculus with 12 samples.

Results

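The genes described here are 6 matrix metalloproteinases (Mmp8, Mmp9, Mmp12, Mmp13, Mmp14 and Mmp19) and 3 of their inhibitors (Timp1, Timp2 and Timp3). They were taken by symbol from the 54532 genes of the count table and are 9 of the 27 Mmp and Timp genes in it. Levels of messenger RNA were measured by sequencing in N9, a mouse cell line derived from microglia (the macrophages that live in the brain) and immortalised for culture. There were 4 groups of 3 libraries, all from this line. In the first, the medium was the control one, a glucose-free base with dialyzed serum to which glucose (3 mM) and fructose (5 mM) were added, and there was no lipopolysaccharide (LPS), the bacterial outer membrane component that activates Toll-like receptor 4. The other groups had LPS at 1 µg/ml for the last 6 h after 18 h in control medium, in the same medium with 15 mM glucose, or in the same medium with 15 mM fructose. The labels hold no group with a raised sugar and no LPS and no osmotic control, and do not say whether 15 mM is a final concentration or an addition. Nor do they state whether the 3 libraries of a group are from independent cultures. The p-values therefore measure only how these libraries varied, and that variation may be technical.

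Matrix metalloproteinases are zinc-dependent enzymes that are made as inactive proenzymes and, once activated, cut collagens, basement membrane proteins and many cell surface and secreted proteins. Tissue inhibitors of metalloproteinases (TIMPs) bind the active site and block it. In the brain, microglia and invading leukocytes are sources of both, and the enzymes are studied for opening the blood-brain barrier and for remodelling matrix during inflammation. Many metalloproteinase genes are controlled by inflammatory signals through AP-1 and other transcription factors that bind near the start site. Messenger RNA levels do not report enzyme activity, which depends on activation and inhibition of the protein.

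The members were chosen by their values in these libraries. Mmp13 and Mmp19 were selected on their log2 difference between high glucose and control medium under LPS, as members of the up to 8 protein-coding genes with the largest called rise. Mmp19 was selected in the same way on its difference between high fructose and each of the other LPS groups. For these genes in these comparisons the values chose the members and are given as a description, with no test. All other member values are from a test fitted to all genes with edgeR, and a gene is called when its adjusted p (Benjamini-Hochberg over the 12766 genes tested) is below 0.05. The other comparisons of Mmp13 and Mmp19 share libraries with those that chose them, so their p-values are not independent of that choice. Of the 9 members 7 had enough reads to be tested, each with at least 10 reads in libraries of more than 1 group, and Mmp14 and Timp3 did not.

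The sequences just before the start sites are shown first, since 3 of the members (Mmp13, Mmp12 and Mmp8) lie in 1 cluster on chromosome 9 and moved in both directions with LPS. Windows of 300 bases, 250 before to 50 after a start, were found in RefSeq (build GRCm38.p6) for 7 of the 9 members, in 8 windows because Mmp12 has 2 starts. Mmp9 and Mmp19 were not matched. The 150 bases before each start of these 3 genes are printed 5′ to 3′ on the plus strand, with every complete motif match in capitals.

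Mmp13, chr9:7272364-7272513: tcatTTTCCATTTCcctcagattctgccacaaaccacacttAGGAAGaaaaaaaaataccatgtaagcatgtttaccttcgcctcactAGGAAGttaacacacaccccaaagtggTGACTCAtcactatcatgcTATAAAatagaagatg
Mmp12, first start, chr9:7344247-7344396: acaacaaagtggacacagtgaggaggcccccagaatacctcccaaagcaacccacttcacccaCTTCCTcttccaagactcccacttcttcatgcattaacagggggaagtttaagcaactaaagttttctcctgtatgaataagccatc
Mmp12, second start, chr9:7347224-7347373: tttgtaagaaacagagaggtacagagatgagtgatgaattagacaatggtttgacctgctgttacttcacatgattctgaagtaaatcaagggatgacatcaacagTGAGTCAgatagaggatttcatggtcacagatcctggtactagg
Mmp8, chr9:7558279-7558428: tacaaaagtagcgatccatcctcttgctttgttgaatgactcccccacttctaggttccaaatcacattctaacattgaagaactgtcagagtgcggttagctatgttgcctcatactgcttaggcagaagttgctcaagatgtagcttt

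The motifs searched on both strands were AP-1 (TGANTCA), NF-kB, the interferon response core, STAT (TTCNNNGAA), ETS (AGGAAG) and the TATA box (TATAAA). No 2 matches overlap in the stretches printed. Mmp13 holds an AP-1 match at positions -35 to -29 from the start, a TATA box at -16 to -11, ETS matches at -109 to -104 and -62 to -57, and an interferon response core match on the minus strand at -146 to -137. The second start of Mmp12, which lies inside the gene, holds an AP-1 match at -44 to -38, and the first start holds an ETS match on the minus strand at -87 to -82. Mmp8 shows no match in the stretch printed. AP-1 occurred in 2 of the 8 member windows and in 7.81% of 32851 RefSeq promoter windows of this length, and the TATA box in 3 and 13.6%. ETS occurred in 6 windows against 35.4%, and the interferon response core in 1 against 3.44%. NF-kB and STAT letters were found in none, against 0.411% and 8.3%. A match describes letters in a window and is not a measured binding site.

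Libraries held 15453776 to 17956772 counts. For all genes, LPS in control medium raised 1941 and lowered 1736, a split that rested on the scaling (1622 and 2292 with upper-quartile factors, 1412 and 2951 with library totals alone). The directions of the member calls were the same under all 3 scalings. High glucose raised 75 genes and lowered 124, and high fructose 302 and 325. The 10 microglial markers summed to 1595 to 1840 CPM (counts per mega-count of the TMM-scaled library) in all libraries. Of the 8 tested, edgeR called 2 higher (Spi1 and Csf1r) and 2 lower (among them Trem2) with LPS, against 28.8% of all genes called. With each raised sugar it called 0 higher and 2 lower, against 1.56% of all genes with high glucose and 4.91% with high fructose. Those lower with each sugar included Csf1r (-0.29 with high glucose and -0.20 with high fructose on the log2 scale). Csf1r (383 to 477 CPM) and Cd68 (589 to 696 CPM) were high, while Aif1 (0.122 to 0.552 CPM) and P2ry12 (0.0658 to 0.372 CPM) were near 0. Within every group the libraries differed by more than counting error. High-glucose library 2 stood apart in 4 epithelial markers, which summed to 17.2 CPM there (201 of its reads from Krt8) and to at most 3.95 CPM in any other library. The 7 fibroblast markers varied from 0.447 to 19.97 CPM and by several-fold within each group.

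On the scale of FPKM (fragments per kilobase of gene and mega-fragment of library, as deposited), which allows genes to be compared, only 3 of the 9 members exceeded 1 in control medium. They were Timp2 at 16.3 ± 0.834 FPKM (SD, n = 3), Mmp19 at 14.1 ± 0.573 FPKM and Timp1 at 7.17 ± 0.552 FPKM. Timp2 libraries (15.4 to 17.1 FPKM) lay above Mmp19 libraries (13.4 to 14.5 FPKM). In the LPS groups Mmp19 led in all media, at 18.3 ± 2.33, 27.1 ± 1.53 and 47.3 ± 2.09 FPKM in control medium, high glucose and high fructose. The order of Mmp19 and Timp2 without LPS is uncertain, since Mmp19 shares exonic bases with genes on the other strand. Were reads over those bases not counted, Mmp19 would stand at 19.7 FPKM on average without LPS, above Timp2. With LPS this alternative can only raise Mmp19, which was first already. The opposite case, with reads from the other strand counted for Mmp19, was not computed. Timp2 was still above Timp1 with LPS in control medium (11.3 ± 0.120 and 9.95 ± 1.21 FPKM) and in high fructose (11.3 ± 0.738 and 9.12 ± 0.811 FPKM). With high glucose the order of the inhibitors was the opposite, with Timp1 at 11.9 ± 0.973 and Timp2 at 8.89 ± 0.468 FPKM, and in none of these groups did their libraries overlap. Mmp13 came next in each LPS group (2.50, 4.90 and 3.78 FPKM), and Mmp12, Mmp8 and Mmp9 stayed below 1 FPKM in every library.

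**Figure D1:**
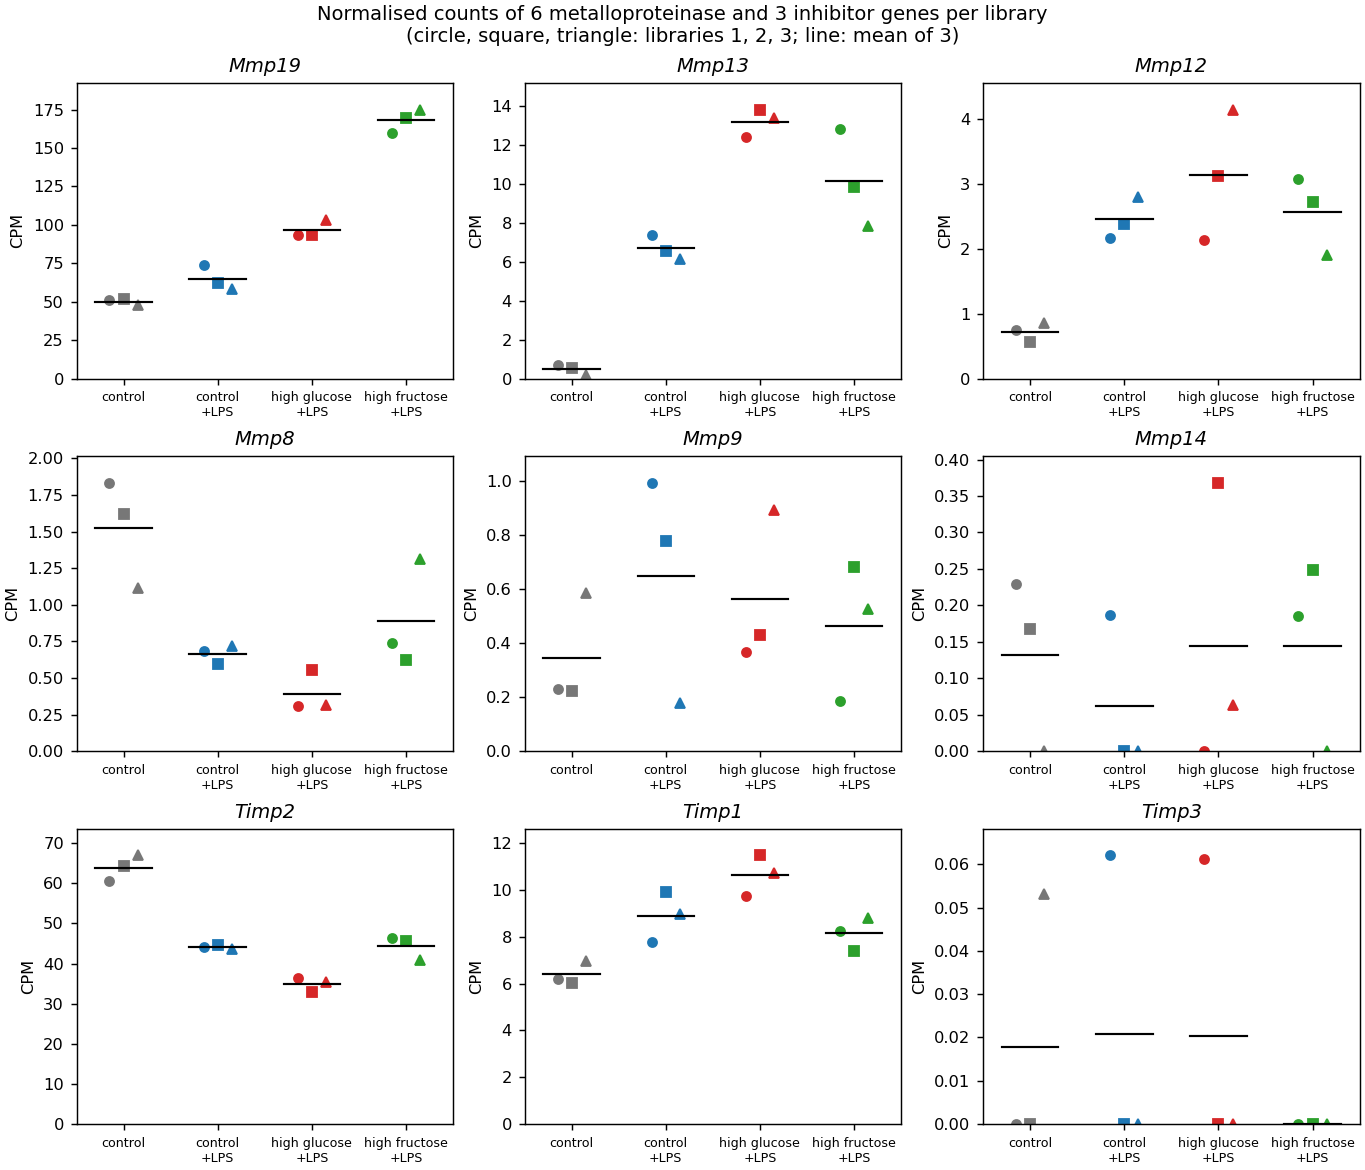
Each panel plots the CPM of 1 gene (y axis, linear from 0) in the 12 libraries by group (x axis). Circles, squares and triangles are libraries 1, 2 and 3, and the line is their mean. Mmp19 stepped from about 50.1 to 168 CPM over the 4 groups, and Mmp14 and Timp3 had at most 6 reads and 1 read in a library.

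The first comparison asked how LPS changed the family in control medium. Of the 7 members tested, 4 rose (Mmp13, Mmp12, Mmp19 and Timp1) and 2 fell (Mmp8 and Timp2), against 28.8% of all genes called (15.2% higher and 13.6% lower). The groups did not overlap for the same 6 members, against 44.3% of all genes. Mmp13 changed most, at 14.3-fold, and Timp1 and Timp2 moved in opposite directions. In RNA from whole cultures, fewer expressing cells and less RNA per cell cannot be told apart.

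Mmp13 encodes a collagenase that cuts fibrillar collagen. Without LPS it had 12, 10 and 3 reads, or 0.688, 0.559 and 0.159 CPM. With LPS it had 119, 110 and 103 reads, or 7.39, 6.56 and 6.15 CPM, so that every library with LPS lay far above every library without. The log2 fold change was 3.83 ± 0.30 (SE; edgeR adjusted p = 1.20e-08).

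Mmp12 encodes the macrophage elastase, which cuts elastin. Its reads rose from 13, 10 and 16 to 35, 40 and 47, or from 0.745, 0.559 and 0.851 CPM to 2.17, 2.39 and 2.81 CPM. No library with LPS fell among those without, and the log2 fold change was 1.76 ± 0.33 (edgeR adjusted p = 0.000468). Of its exonic bases 2.17% overlap Mmp1b on the other strand, which had no read in any library.

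Mmp8 encodes the collagenase best known from neutrophil granules. It went the other way, from 1.83, 1.62 and 1.12 CPM (32, 29 and 21 reads) to 0.683, 0.597 and 0.717 CPM (11, 10 and 12 reads). All libraries with LPS lay below those without, and the log2 fold change was -1.18 ± 0.40 (edgeR adjusted p = 0.0337). The call rested on few reads: it was lost when any 1 library other than library 3 without LPS was left out (edgeR adjusted p 0.0864 to 0.136) and with no filter on low counts (0.0971). The neutrophil-defining genes Ly6g and Retnlg had no read in any library. The 9 neutrophil markers together summed to 3.955 to 4.582 CPM without LPS and to 10.26 to 11.86 CPM with it in control medium, most of it S100a8 (log2 change 1.40, called by edgeR), and each of the others was below 1 CPM in every library. Their part in the level of Mmp8 was not tested.

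Mmp19 encodes a secreted enzyme that cuts basement membrane proteins. It was already at 50.9, 51.5 and 47.8 CPM without LPS and stood at 73.9, 62.5 and 58.0 CPM with it. Libraries with LPS all lay higher, and the rise was small beside that of Mmp13, at 0.37 ± 0.08 on the log2 scale (edgeR adjusted p = 0.00118).

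Mmp9, the gelatinase that cuts denatured collagen and basement membrane collagen, had 4, 4 and 11 reads without LPS and 16, 13 and 3 with it. The groups overlapped and the log2 fold change of 0.88 ± 0.65 was not called (edgeR adjusted p = 0.357). The 95% interval of the fold, 0.709 to 4.75, is wide at this depth.

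Among the inhibitors, Timp1, whose product also binds the proenzyme of Mmp9, stood at 6.19, 6.04 and 6.96 CPM without LPS and at 7.76, 9.91 and 8.96 CPM with it. Again libraries with LPS all lay higher, and the log2 fold change was 0.47 ± 0.13 (edgeR adjusted p = 0.0125), a call lost without library 2 of either group (0.0517 for the group without LPS and 0.0704 for that with it). Timp2, whose product both inhibits metalloproteinases and helps the membrane enzyme of Mmp14 to activate the gelatinase of Mmp2, fell from 60.5, 64.4 and 67.0 CPM to 44.1, 44.5 and 43.7 CPM. No library overlapped, and the log2 fold change of -0.54 ± 0.07 (edgeR adjusted p = 4.38e-06) was called whichever library was left out.

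Both remaining members were close to unread. Mmp14, the membrane-anchored collagenase, had 0 to 6 reads per library and 24 in all 12. Timp3, the inhibitor that binds to matrix, had 3 reads in all 12 libraries, 1 each in 3 of them. A count of 3 reads is worth 0.159 to 0.197 CPM here, and no change in either gene was detectable at this depth.

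The next comparison asked what raised glucose added to LPS. Mmp13 and Mmp19 were higher and Timp2 was lower, 3 of the 7 members tested, against 1.56% of all genes called (0.587% higher and 0.971% lower). The groups did not overlap for these and for Mmp8, 4 members in all, against 19.2% of all genes. The comparison chose both enzymes, so nothing is read from these counts. With 1 library left out the count of members called was 1 to 3, since Mmp13 and Timp2 each lost the call in some of these fits.

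Mmp13 stood at 12.4, 13.8 and 13.4 CPM with high glucose against 7.39, 6.56 and 6.15 CPM in control medium with LPS. The lowest high-glucose library was above the highest control library, and the log2 difference was 0.98 ± 0.19, a fold of 1.97. Mmp19 stood at 93.2, 93.4 and 103 CPM against 73.9, 62.5 and 58.0 CPM. The libraries were again apart, with a log2 difference of 0.58 ± 0.07, a fold of 1.49.

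Timp2 stood at 36.3, 32.8 and 35.5 CPM with high glucose against 44.1, 44.5 and 43.7 CPM. All high-glucose libraries lay below all control libraries, and the log2 fold change was -0.34 ± 0.07 (edgeR adjusted p = 0.0173). The adjusted p passed 0.05 without LPS library 1, 2 or 3 in control medium (0.0693, 0.0780 and 0.0623) and without high-glucose library 2 or 3 (0.0633 and 0.0605). With any 1 library left out the difference itself was -0.37 to -0.30.

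The other 4 members tested were not called. Timp1 stood at 9.72, 11.5 and 10.7 CPM against 7.76, 9.91 and 8.96 CPM, overlapping by 1 library (log2 difference 0.26 ± 0.13, edgeR adjusted p = 0.389, 95% interval of the fold 0.991 to 1.45). Mmp12 stood at 2.14, 3.13 and 4.14 CPM, with high-glucose library 1 below and the others above all control libraries (0.35 ± 0.28, edgeR adjusted p = 0.653). Mmp8 had 5, 9 and 5 reads against 11, 10 and 12 (-0.75 ± 0.47, edgeR adjusted p = 0.526, interval of the fold 0.298 to 1.19). Mmp9 had 6, 7 and 14 reads against 16, 13 and 3 (-0.20 ± 0.62, edgeR adjusted p = 0.934).

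**Figure D2:**
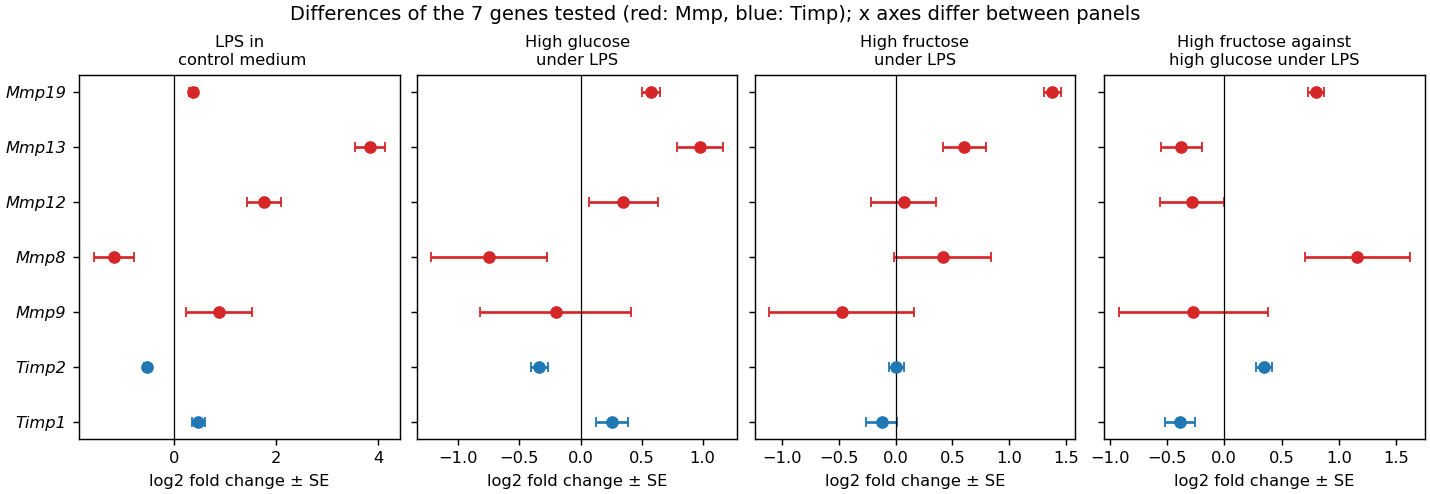
Points are log2 fold changes with their standard errors (x axis, with a different range in each panel) for the 7 genes tested (y axis) in the 4 comparisons. Metalloproteinases are red and inhibitors blue. Mmp19 lies to the right of 0 in every panel, and Timp2 to the left with LPS and with high glucose and at 0.01 with high fructose.

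With raised fructose Mmp19 was the member that stood out. It reached 160, 170 and 175 CPM (2593, 2735 and 2658 reads) against 73.9, 62.5 and 58.0 CPM (1191, 1047 and 971 reads) in control medium with LPS. The lowest high-fructose library was above every library of any other group, and the log2 difference was 1.38 ± 0.07, a fold of 2.60. It was the 1 member called of 7 tested, where 4.91% of all genes were called (2.37% higher and 2.55% lower), and this comparison chose it. For 2 members, Mmp19 and Mmp13, the groups did not overlap, against 20.4% of all genes. The 5 neuron markers summed to 27.15 to 31.71 CPM in control medium and to 43.14 to 51.41 CPM with high fructose. The difference lay in the tubulin gene Tubb3 (1.27, called by edgeR). Map2, the other marker tested, was not called and averaged 16.6 CPM in control medium with LPS and 16.2 CPM with high fructose. Rbfox3, Snap25 and Syt1 were below 1 CPM in every library. Their part in the level of Mmp19 was not tested.

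Mmp13 with high fructose spread more widely than in any other LPS group, at 12.8, 9.86 and 7.83 CPM against 7.39, 6.56 and 6.15 CPM. The groups did not overlap, but the log2 difference of 0.60 ± 0.19 was not called (edgeR adjusted p = 0.0874). It was called without high-fructose library 3 (adjusted p = 0.0335), with no filter on low counts (0.00841), with the replicate number as a block (0.0472) and with DESeq2 (0.0305). The control libraries here are among those that chose Mmp13, so none of these p-values is independent of that choice. Leaving out high-fructose library 1 brought the difference to 0.40. The 7 fibroblast markers summed to 12.9, 19.97 and 1.12 CPM in high-fructose libraries 1, 2 and 3. That sum was lowest where Mmp13 was lowest, and highest in library 2, where Mmp13 was not highest. In control medium with LPS it was 8.07, 0.835 and 0.955 CPM. With high glucose it was 1.16, 1.17 and 8.86 CPM, where Mmp13 averaged 13.2 CPM. Of 4 tested edgeR and DESeq2 called 0 with high fructose, against 4.91% of all genes by edgeR, with 1 at an unadjusted edgeR p below 0.05. All 7 had reads in some library. Their part in the level of Mmp13 was not tested.

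Timp2 was level, at 46.3, 45.6 and 41.0 CPM against 44.1, 44.5 and 43.7 CPM. Its log2 difference was 0.01 ± 0.07 (edgeR adjusted p = 0.98), with a 95% interval of the fold from 0.911 to 1.11. Timp1 stood at 8.27, 7.38 and 8.81 CPM, within or below the control range (-0.12 ± 0.13, edgeR adjusted p = 0.744). Mmp12 stood at 3.08, 2.73 and 1.91 CPM (0.07 ± 0.29, edgeR adjusted p = 0.952). Mmp8 had 12, 10 and 20 reads (0.41 ± 0.42, edgeR adjusted p = 0.732) and Mmp9 3, 11 and 8 reads (-0.48 ± 0.64, edgeR adjusted p = 0.81). The 95% intervals of the fold were wide for both, from 0.715 to 2.48 for Mmp8 and from 0.283 to 1.83 for Mmp9.

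The 2 sugars were then set against each other under LPS. Mmp19 was higher with high fructose than with high glucose, at 160, 170 and 175 against 93.2, 93.4 and 103 CPM, a log2 difference of 0.80 ± 0.07 given as a description. Timp2 was also higher with high fructose, at 46.3, 45.6 and 41.0 against 36.3, 32.8 and 35.5 CPM. No library overlapped, and its log2 fold change was 0.34 ± 0.07 (edgeR adjusted p = 0.00694), or an adjusted p of 0.0517 in a fit of these 2 groups alone. These were 2 of 7 members tested, where 3.72% of all genes were called (1.84% higher and 1.88% lower), and Mmp19 was chosen by its difference here. The groups did not overlap for 4 members (Mmp8, Mmp19, Timp1 and Timp2), against 17.9% of all genes. The comparisons of each sugar with control medium share their control libraries.

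Other members leaned the other way or varied without a call. Timp1 was lower with high fructose with no overlap of libraries (-0.38 ± 0.13, edgeR adjusted p = 0.131), and Mmp13 was lower with overlap (-0.37 ± 0.18, edgeR adjusted p = 0.333). Mmp8 had 12, 10 and 20 reads with high fructose against 5, 9 and 5, again without overlap (1.16 ± 0.46, edgeR adjusted p = 0.207). Mmp12 (-0.28 ± 0.28, edgeR adjusted p = 0.7) and Mmp9 (-0.27 ± 0.65, edgeR adjusted p = 0.895) overlapped.

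The level of Mmp19 messenger RNA relative to that of Timp2 or Timp1 can be read as a ratio of FPKM within each library. Mmp19 over Timp2 was 0.928, 0.883 and 0.787 in control medium and 1.85, 1.55 and 1.46 with LPS. It was 2.83, 3.14 and 3.20 with high glucose and 3.81, 4.10 and 4.70 with high fructose, and no 2 groups overlapped. Were reads over the shared bases of Mmp19 not counted, its reads would belong to fewer bases, and the 4 means would be 1.21, 2.26, 4.26 and 5.87. That multiplies every library by the same factor, so the order of groups could not change. The opposite case, with reads from the other strand counted for Mmp19, was not computed. Mmp19 over Timp1 did not follow the steps of the ratio to Timp2, at 2.07, 2.15 and 1.72 without LPS, 2.39, 1.59 and 1.63 with it and 2.41, 2.05 and 2.42 with high glucose. Only high fructose stood apart on that ratio, at 4.86, 5.78 and 4.99. The 3 TIMP genes summed to 19.9 to 24.9 FPKM over all libraries. The 6 Mmp genes summed to 15.1 ± 0.755, 21.6 ± 2.64, 32.8 ± 1.79 and 51.9 ± 1.22 FPKM in the order of the groups above. Mmp19 made up 92.2% to 94.4% of that sum without LPS, 84.4% to 85.1% with LPS in control medium, 81.5% to 83.6% with high glucose and 89.0% to 92.7% with high fructose. These ratios rest on the values that chose Mmp19 and carry no test.

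**Figure D3:**
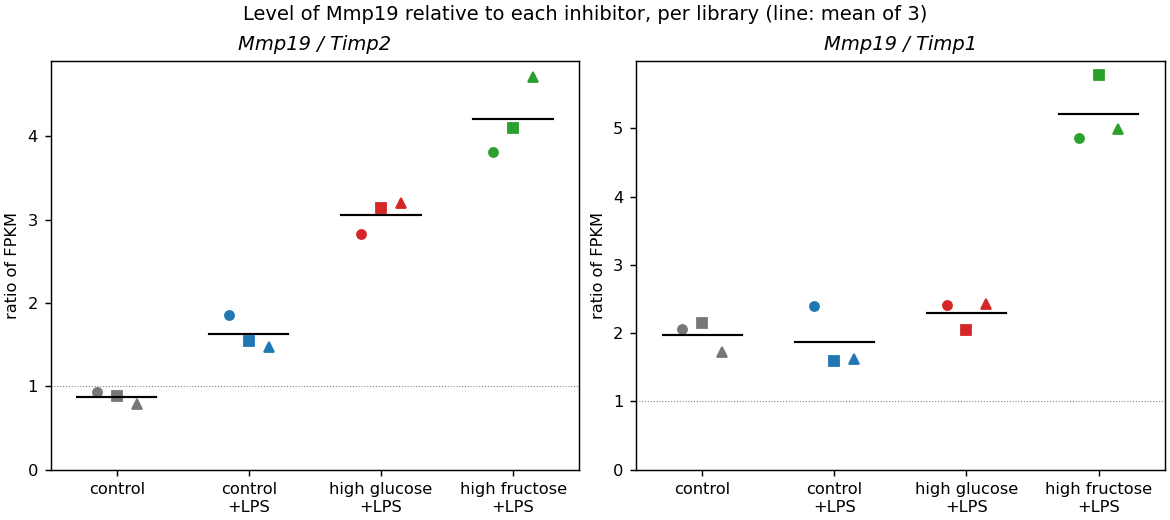
Ratio of FPKM (y axis, linear from 0) of Mmp19 to Timp2 (left) and to Timp1 (right) in each library, by group (x axis). Symbols are libraries 1, 2 and 3, the line is the mean of 3, and the dotted line marks a ratio of 1. The ratio to Timp2 averaged 0.866, 1.62, 3.06 and 4.21 over the groups, and that to Timp1 1.98, 1.87, 2.29 and 5.21.

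Mmp19 (ENSMUSG00000025355) lies on the plus strand of chromosome 10 at 128790910 to 128800824 of GRCm38, and 28.3% of its 3533 exonic bases lie under exons of genes on the other strand. How strand was treated in counting is not stated, so reads of the shared bases could be dropped or be assigned to either gene. The overlapping genes are Tmem198b, a gene for a membrane protein that covers 22.3% of the exonic bases of Mmp19, and the antisense gene Gm47093, which covers 6% and had no read. Tmem198b had 58 to 136 reads per library, and 245, 253, 271 and 345 per group, which is 9.04%, 7.88%, 5.81% and 4.32% of the reads of Mmp19 in the order of the groups. Its log2 changes were 0.16 with LPS (edgeR adjusted p = 0.643), 0.14 with high glucose (edgeR adjusted p = 0.844) and 0.51 with high fructose (edgeR adjusted p = 0.241). With high fructose the libraries of Tmem198b (6.576 to 8.434 CPM) lay above every library of the other groups (at most 6.375 CPM). The part of opposite-strand reads in the counts of Mmp19 was not tested. Of the other members, Timp3 shares 21.3% of its exonic bases with Syn3 on the other strand, which had no read, and Mmp8, Mmp9, Mmp13, Mmp14, Timp1 and Timp2 share none. The longest transcript of each member, the only one searched, matched no other gene at 98% identity over 75 bases, apart from these overlaps of Mmp19 and Timp3. For Mmp12 that transcript has 4474 bases, of 7237 exonic bases.

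**Figure D4:**
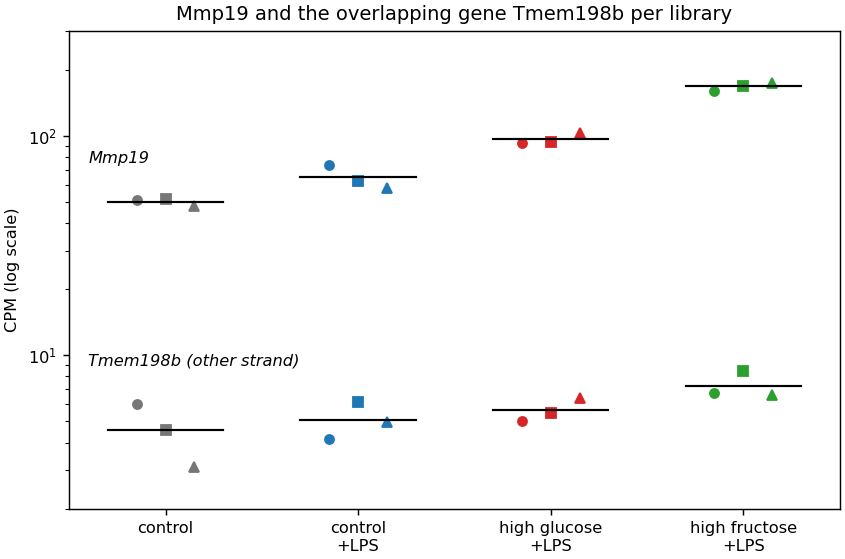
CPM on a log scale (y axis) of Mmp19 (upper points) and of Tmem198b on the other strand (lower points) in each library by group (x axis). Symbols are libraries 1, 2 and 3 and lines the means of 3. Tmem198b ranged from 3.08 to 8.43 CPM and was highest in the high-fructose libraries.

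Mmp13 (ENSMUSG00000050578, chromosome 9 at 7272514 to 7283331), Mmp12 (ENSMUSG00000049723, 7344381 to 7369499) and Mmp8 (ENSMUSG00000005800, 7558456 to 7568485) belong to a cluster of 10 Mmp genes that spans 427 kb. Its other genes were little read. Mmp1b, Mmp1a and Mmp20 had no read in 12 libraries, Mmp3 had 11 and Mmp7 had 13. Of the reads of Mmp7, 8 were in high-glucose library 2, the library that stood apart in epithelial markers, and 3 in high-glucose library 3, and the part of that library's makeup was not tested. Mmp27 had 20, 20, 16 and 5 reads in the order of the groups.

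Between Mmp12 and Mmp8 lies Mmp10, a stromelysin gene that is no member. It had no read without LPS, 6, 4 and 2 reads with LPS, 16, 23 and 10 with high glucose and 2, 6 and 9 with high fructose. With 3 reads taken for the group without LPS and the reads with LPS as counted, the fold was 4.37. Counting error of the reads with LPS is not in this value. The rise of Mmp10 with LPS was called (edgeR adjusted p = 0.0131). Its groups with high glucose and with control medium did not overlap, but the log2 difference of 2.03 ± 0.61 was not called (edgeR adjusted p = 0.136), and Mmp10 passed the filter on low counts through the high-glucose libraries alone. Of the 4 genes of the cluster that were tested, Mmp13, Mmp12 and Mmp10 thus rose with LPS and Mmp8 fell. Of all genes 28.8% were called in that comparison (15.2% higher and 13.6% lower), and the calls of Mmp10 and Mmp8 rest on few reads.

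**Figure D5:**
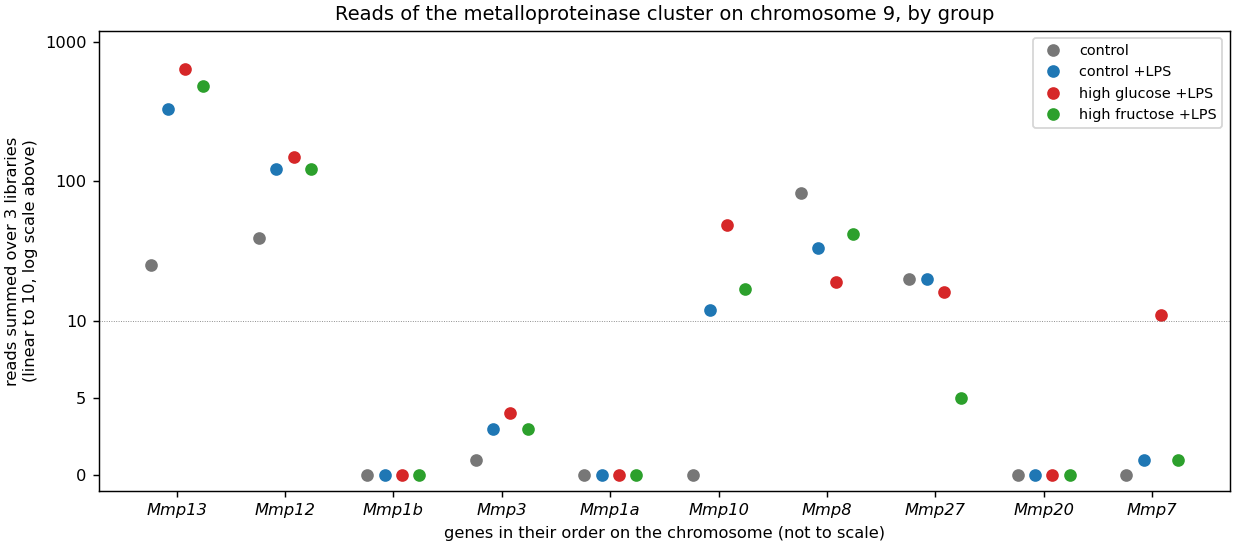
Reads summed over the 3 libraries of each group (y axis, linear to 10 and logarithmic above) for the 10 genes of the cluster in chromosomal order (x axis, not to scale). Colours mark the groups. Mmp13 had 25, 332, 638 and 486 reads and Mmp8 82, 33, 19 and 42 in the order of the groups.

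Of the 18 Mmp and Timp genes that are not members, 3 were tested, 5 had no read in any library and 10 had at most 11 reads in a library. Mmp2, the other gelatinase, had 4 to 18 reads per library and was not called in any comparison (log2 differences -0.04, -0.67, 0.71 and 1.38 in the order given here). Mmp11 had 8 to 42 reads and was not called either (-0.83, -0.34, 0.42 and 0.75). In each comparison of sugars under LPS 0 of these 3 genes were called by edgeR and by DESeq2, and 1, 0 and 2 had an unadjusted edgeR p below 0.05. The shares of all genes called by edgeR were 1.56%, 4.91% and 3.72%, so a count of 0 among 3 genes says little.

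Genes that activate, bind or restrain metalloproteinases were taken as a list of 20, of which 13 were tested. With LPS 8 rose and 1 fell (median log2 change 0.47, against -0.00 for all genes), where 28.8% of all genes were called. The rises included Plaur, the receptor of urokinase (1.51 ± 0.05). Anxa2, part of a plasminogen receptor, rose by 0.74 ± 0.04, and Cd44, a hyaluronan receptor that can hold Mmp9 at the cell surface, by 0.79 ± 0.05 (edgeR adjusted p 6.50e-14 to 6.44e-10 for these 3). With high glucose 1 of the 13 was called higher by edgeR, against 1.56% of all genes called. With high fructose 5 rose and none fell by edgeR, among them Cd44 (0.39), S100a10 (0.39), Anxa2 (0.33) and Plaur (0.27), the last named after its values were seen, against 4.91% of all genes called. The medians of the 13 were 0.05 with high glucose and 0.14 with high fructose. Against high glucose, high fructose was higher for Anxa2 (0.38), Cd44 (0.30), Plaur (0.25) and S100a10 (0.27), which makes 4 of 13 against 3.72% of all genes called. Plau, the urokinase gene, fell with LPS (-0.25) and was not called with either sugar.

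The related ADAM and ADAMTS proteases formed a list of 24, of which 9 were tested. With LPS 4 rose and 2 fell (median log2 change 0.19), 6 of 9 against 28.8% of all genes called. Adamts7 (4.18 ± 0.53) and Adamts1 (0.46 ± 0.06) rose and the sheddase genes Adam10 (-0.37) and Adam9 (-0.31) fell. Adamts7 had 0 to 5 reads in a library without LPS and 24 to 51 with it in control medium. Adam8 (0.23) and Adam17 (0.19), named after their values were seen, rose too. With high fructose Adamts1, which cuts proteoglycans, was the 1 gene called of 9 (0.29 ± 0.06, edgeR adjusted p = 0.00416), against 4.91% of all genes. None of the 9 was called with high glucose by edgeR or DESeq2, against 1.56% of all genes by edgeR, and 1 had an unadjusted edgeR p below 0.05. For high fructose against high glucose edgeR called 0, against 3.72% of all genes, and DESeq2 1, and 4 had an unadjusted edgeR p below 0.05.

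Matrix genes whose products metalloproteinases can cut were a list of 15, of which 6 were tested, with a median log2 change of -0.21 with LPS. In that comparison the laminin gene Lamc1 (0.51 ± 0.08) and the collagen gene Col4a2 (1.84 ± 0.37) rose, and Spp1, for osteopontin, fell by 0.41, which makes 3 of 6 against 28.8% of all genes called. Col4a2 rested on 25 reads without LPS and 83 with it, while Col4a1, named after its values were seen, had 22 and 3. In the 3 sugar comparisons edgeR and DESeq2 called 0 of the 6, and 1, 3 and 1 had an unadjusted edgeR p below 0.05. Of all genes edgeR called 1.56%, 4.91% and 3.72% there, so a count of 0 among 6 genes says little. The list summed to 10150 to 10310 CPM without LPS, most of it Spp1, and to 8203 to 9212 CPM in the LPS groups.

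Likeness of pattern was measured as the root mean square difference of log2 CPM over the 12 libraries, each gene centred on its own mean. The protein-coding genes nearest to Mmp13 were Il1rn (0.328), Edn1 (0.37) and Nfkbiz (0.417), where Mmp13 itself ranged over 4.44. Nearest to Mmp19, with a range of 1.86, were Capn2 (0.272), Emp1 (0.288) and Ccr1 (0.291). Timp2 was followed most closely, by Gdpd5 (0.0759), Hal (0.0781) and Ttc7 (0.0826) over a range of 1.02, and Timp1 by Smco4 (0.0967), Cldn12 (0.114) and Zfp36 (0.115) over 0.874. Mmp12 had Atp13a4 (0.188), Tmem140 (0.216) and Tm4sf1 (0.224) nearest. Mmp8 had Zcchc24 (0.21), Plxdc1 (0.211) and Cpeb1 (0.236), and Mmp9 had E230025N22Rik (0.257), Tex14 (0.281) and Rfx5 (0.281). No member was among the nearest genes because members were left out of the search. The libraries share their groups, so a likeness can follow the steps between groups alone, and Mmp8 and Mmp9 rest on at most 32 and 16 reads in a library.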

How the data were processed

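The RNA of 12 N9 libraries was sequenced. The authors deposited a table of whole-number counts by gene, for which the submitters' processing notes name featureCounts 1.5.0-p3 and mm10. The FPKM values deposited by the authors equal count over gene length times 1 constant per library, within 1.18e-07%. Aligner, annotation release and strand setting: not given in the sources used here. Counts were tested with edgeR 4.0.16 (R 4.3.3): default expression filter, TMM scaling and 1 quasi-likelihood model of all 12 libraries with 8 residual degrees of freedom. The SE was the log2 change over the root of F. The scripts were tested on simulated data. Alternatives were DESeq2 1.42.0, other scalings and filters, a replicate block, fits of 2 groups and left-out libraries. Overlaps were read from GENCODE M21 (GRCm38), whose coordinates equal the deposited ones for all 9 members. The longest transcript of each member was compared with all transcripts by BLAST 2.17.0+. For likeness of pattern 0.5 was added to CPM before log2. The members and lists were chosen with earlier results of these data known. The genes named are all members, other family genes tested, up to 4 genes per list and comparison with the smallest adjusted p, opposite-strand genes with at least 10 reads in a library, and the 3 nearest genes in pattern; opposite-strand genes without a read were added. The fold of Mmp10 with 3 reads taken allows for counting error in the group without reads only. Values of some listed genes are not reported here.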

Additional observations from a re-analysis of the deposited data

How the results depend on the processing

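Of 390 values of single members under other settings, 360 kept their direction and side of the threshold, 17 lost a call, 4 gained one and 9 changed sign. The sign changes were all in uncalled differences with 1 library left out. Mmp9 then ranged from -0.69 to 0.23 with high glucose (sign changed at 0.02 and 0.23) and from -0.66 to 0.21 for fructose against glucose (0.11 and 0.21). Mmp12 ranged from -0.085 to 0.24 with high fructose (-0.085 and -0.013), and Timp2 from -0.030 to 0.059 (-0.030, -0.015 and -0.0044). For high glucose the number of genes called moved from 199 to 427 with no filter, 299 with DESeq2, 391 with the replicate block, and 67 to 177 with 1 library left out, where 1 to 3 members were called. For high fructose the members called went from 1 to 2 with no filter, with DESeq2 and with the replicate block, and were 1 to 2 with 1 library left out. For fructose against glucose 475 genes became 735 with the replicate block and 247 in a fit of the 2 groups alone, where 1 member was called. The cause was not tested. An alternative chosen after seeing the data, Mmp19 without reads over shared exonic bases, moved its FPKM ratio to Timp2 by its construction: 0.866, 1.62, 3.06 and 4.21 became 1.21, 2.26, 4.26 and 5.87 in the groups without LPS, with it, and with added glucose or fructose. The labels give same-numbered libraries only a number in common. Of 18 such pairs 5 correlated above 0.1 in their deviations from the group means (range -0.093 to 0.215), and 9 of 12 libraries correlated best with their own number. Whether same-numbered libraries were handled together is not stated and was not tested, and the main model has no term for it. Depth limits Mmp8, Mmp9, Mmp14 and Timp3, with at most 32 reads in a library.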
